A study of Homo sapiens with 12 samples.

Results

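The genes described here are 10 core circadian clock genes, chosen by symbol: the period genes PER1, PER2 and PER3, the cryptochromes CRY1 and CRY2, the REV-ERB genes NR1D1 and NR1D2, the PAR bZIP genes DBP and TEF, and BHLHE40. All 10 were found among the 27814 named genes of the count table, and all 10 passed the filter on low counts that left 16208 genes for testing. They were measured by bulk RNA sequencing in BT474, an established human breast cancer line that carries hormone receptors and amplified HER2. The 12 libraries form 4 groups of 3: cells labelled BRD8 knockout (KO) given 200 nM neratinib for 4 h, parental cells given the same treatment, KO-labelled cells in DMSO, and parental cells in DMSO, the solvent. BRD8 belongs to the EP400-TIP60 chromatin complex and carries bromodomains, neratinib irreversibly inhibits the ErbB receptor kinases including HER2, and the study concerned BRD8 in resistance to combined oestrogen receptor and HER2 blockade. The labels do not say whether the KO-labelled cells were a clone or a pool, where BRD8 was edited, how long DMSO was given, at what hour cells were harvested or whether they were synchronised. Each condition was sampled at a single time, so levels were measured and rhythms were not.

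In the mammalian clock, the activators CLOCK and BMAL1 bind E-box elements and switch on the PER and CRY genes, whose proteins return to the nucleus and repress those activators. A second loop runs through the REV-ERB proteins, which repress BMAL1, against the ROR receptors, which activate it. DBP and TEF carry the rhythm to output genes by activating through D-box elements, and BHLHE40 (DEC1) represses through the same E-boxes that CLOCK and BMAL1 use. Cultured epithelial cells run this loop cell by cell, and PER1 is also known as a gene that responds quickly to signals reaching its promoter through CREB and the glucocorticoid receptor.

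Promoters of 4 genes are shown because the same element, the E-box CACGTG, stands before genes that moved in opposite directions after neratinib, and because PER3 and BHLHE40 differed most between KO-labelled and parental cells. PER1 and NR1D2 were higher with neratinib, BHLHE40 and PER3 were lower. Each sequence runs from 250 bases before to 50 bases after a RefSeq start (GRCh38.p14), written 5′ to 3′ on the gene's own strand, with E-boxes (CACGTG) and D-boxes (TTATGTAA, on either strand) in capitals. PER1 lies at chr17:8152355-8152654 on the minus strand, the second of 2 NR1D2 windows at chr3:23945871-23946170 on the plus strand, BHLHE40 at chr3:4979187-4979486 on the plus strand and the first of 2 PER3 windows at chr1:7784041-7784340 on the plus strand.
PER1: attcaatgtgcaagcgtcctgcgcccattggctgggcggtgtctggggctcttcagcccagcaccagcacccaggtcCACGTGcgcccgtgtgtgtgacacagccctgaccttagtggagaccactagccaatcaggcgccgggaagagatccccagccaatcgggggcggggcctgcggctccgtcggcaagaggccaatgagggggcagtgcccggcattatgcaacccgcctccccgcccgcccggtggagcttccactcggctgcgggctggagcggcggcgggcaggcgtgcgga
NR1D2: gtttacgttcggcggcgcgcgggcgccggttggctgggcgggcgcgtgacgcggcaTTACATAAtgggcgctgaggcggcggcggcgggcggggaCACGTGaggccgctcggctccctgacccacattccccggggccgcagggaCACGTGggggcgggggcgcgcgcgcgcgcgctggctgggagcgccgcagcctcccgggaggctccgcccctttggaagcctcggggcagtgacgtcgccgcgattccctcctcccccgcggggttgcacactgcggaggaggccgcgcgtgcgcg
BHLHE40: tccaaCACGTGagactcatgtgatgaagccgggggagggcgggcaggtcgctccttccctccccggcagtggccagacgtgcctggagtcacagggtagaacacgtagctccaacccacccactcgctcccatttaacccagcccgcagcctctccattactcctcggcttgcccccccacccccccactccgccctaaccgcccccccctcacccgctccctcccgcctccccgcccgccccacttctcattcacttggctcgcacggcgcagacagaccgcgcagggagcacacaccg
PER3: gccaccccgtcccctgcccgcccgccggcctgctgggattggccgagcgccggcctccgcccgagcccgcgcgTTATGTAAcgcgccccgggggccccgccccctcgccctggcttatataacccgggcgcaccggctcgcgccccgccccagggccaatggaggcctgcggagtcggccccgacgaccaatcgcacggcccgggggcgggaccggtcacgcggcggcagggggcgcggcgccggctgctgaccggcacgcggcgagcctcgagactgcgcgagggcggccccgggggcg

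The 10 genes had 14 such windows, all of which were searched on both strands. The E-box stood in 5 windows of 4 genes (PER1, NR1D2, TEF and BHLHE40), against 7.26% of all 35116 promoter windows. The related CACGTT stood in 4 windows (CRY1, CRY2, NR1D1 and PER2), against 5.34% of all windows, and the D-box in 2 (NR1D2 and PER3), against 0.886%. The REV-ERB and ROR element TAGGTCA was found once, in CRY2, and is in 1.85% of all windows. The forkhead element GTAAACA was found once, in CRY1, and is in 3.42%. The full cyclic AMP element TGACGTCA was in none of the 14 windows, against 1.85% of all windows, and its 5-letter core TGACG, which lies within it, was in 6 windows of 4 genes, against 24.6%. The DBP window held none of the 7 letter strings searched. These are matches of letters in short windows and not measured binding.

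Totals over named genes were 32471198 to 44726160 counts per library. CPM is counts scaled to a common library size by TMM. BRD8 mRNA was at 156.0 ± 2.44 CPM in KO-labelled and 235.6 ± 5.23 CPM in parental cells in neratinib (SD, n = 3 each). In DMSO it was at 67.4 ± 1.39 CPM in KO-labelled and 64.1 ± 0.706 CPM in parental cells (SD, n = 3 each). It was thus lower in KO-labelled cells in neratinib (log2 fold change -0.59, edgeR adjusted p = 3.16e-27). In DMSO it was slightly higher there (log2 fold change 0.07, edgeR adjusted p = 0.0189). Where BRD8 was edited is not stated and protein was not measured, so these counts cannot check the genotype label. The libraries are called KO-labelled throughout. All 9 luminal epithelial markers exceeded 1 CPM in every group. They summed to 13496 to 13696 CPM in KO-labelled and 13980 to 14140 CPM in parental cells in neratinib. In DMSO the sums were 18011 to 18302 CPM in KO-labelled and 17079 to 17290 CPM in parental cells. Single luminal markers went both ways. In neratinib GATA3 averaged 171 CPM in KO-labelled and 389 CPM in parental cells, and KRT8 averaged 1973 and 1439 CPM. None of 6 blood and immune markers exceeded 1 CPM, with sums of at most 1.61 CPM. Summed levels of 6 fibroblast markers were 184 to 188 CPM in KO-labelled and 134 to 137 CPM in parental cells in neratinib, and 117 to 125 CPM in KO-labelled and 92.1 to 97.5 CPM in parental cells in DMSO. COL1A1 and VIM made up nearly all of this, and both averaged higher in KO-labelled than in parental cells in each treatment. PDGFRB and THY1 had 0 counts in both parental groups and group means of at most 0.029 CPM in the KO-labelled ones. COL3A1 averaged 0.637 CPM in KO-labelled and 0.088 CPM in parental cells in neratinib, and 2.60 CPM in KO-labelled and 0.428 CPM in parental cells in DMSO. The 4 endothelial markers summed to 36.8 to 41.0 CPM in KO-labelled and 14.4 to 15.3 CPM in parental cells in neratinib, and to 33.9 to 34.8 CPM in KO-labelled and 12.1 to 12.2 CPM in parental cells in DMSO. VWF made up most of that sum, and the group means of PECAM1 and KDR were at most 0.118 CPM. CDH5 averaged 0.917 CPM in KO-labelled and 0.146 CPM in parental cells in neratinib, and 1.23 CPM in KO-labelled and 0.166 CPM in parental cells in DMSO. The 4 basal markers, with TP63 alone above 1 CPM, summed to 10.9 to 12.04 CPM in KO-labelled and 5.10 to 5.32 CPM in parental cells in neratinib, and to 10.4 to 10.5 CPM in KO-labelled and 6.98 to 7.35 CPM in parental cells in DMSO. The part of these markers in the clock gene results was not tested.

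**Figure D1:**
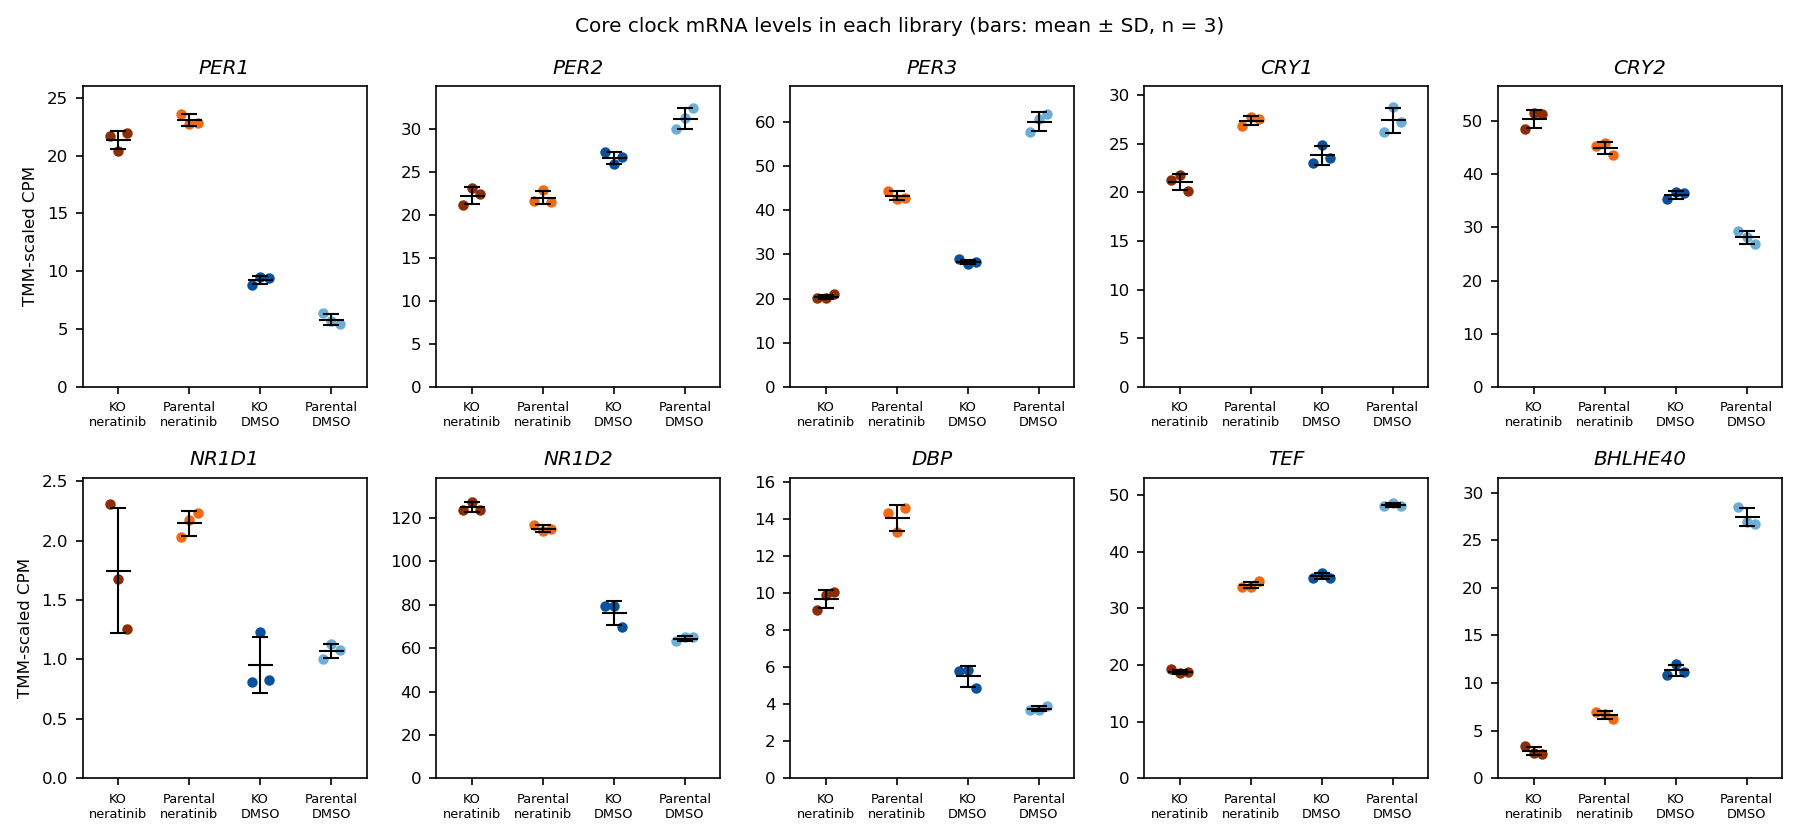
TMM-scaled CPM of each of the 10 genes in every library, on separate linear axes, with points for the 3 libraries of each group and bars for their mean ± SD. PER1 and DBP stand highest in neratinib, BHLHE40 is highest in parental DMSO cells and lowest in KO-labelled neratinib cells, and PER3 is lower in KO-labelled than in parental cells in both treatments.

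Levels of different genes were compared as CPM per kilobase of exon. NR1D2, a REV-ERB repressor, had the highest level of the 10 in every group: 23.8 CPM per kilobase in KO-labelled and 21.9 in parental cells in neratinib, and 14.5 in KO-labelled and 12.2 in parental cells in DMSO. Its paralogue NR1D1 had the lowest level in every group: 0.630 CPM per kilobase in KO-labelled and 0.774 in parental cells in neratinib, and 0.345 in KO-labelled and 0.387 in parental cells in DMSO. The 3 libraries of NR1D1 overlapped those of the next gene, BHLHE40, in KO-labelled neratinib cells, where BHLHE40 was at 0.823 CPM per kilobase. Between these ends the order changed with the condition. In parental DMSO cells it ran TEF (10.3), PER3 (9.27), CRY1 (8.39), BHLHE40 (7.89), CRY2 (6.44), PER2 (4.88), DBP (1.31) and PER1 (1.07), with CRY1 and BHLHE40 overlapping. In KO-labelled neratinib cells it ran CRY2 (11.6), CRY1 (6.45), TEF (4.04), PER1 (3.91), PER2 (3.48), DBP (3.37), PER3 (3.14) and BHLHE40, with overlap between TEF and PER1, between PER2 and DBP and between DBP and PER3. The ratio of CRY2 to CRY1 per kilobase was 1.80 ± 0.103 in KO-labelled and 1.23 ± 0.0381 in parental cells in neratinib, and 1.14 ± 0.0308 in KO-labelled and 0.769 ± 0.0588 in parental cells in DMSO (SD, n = 3 each). Per kilobase, CRY1 was therefore the more abundant cryptochrome mRNA in parental DMSO cells and CRY2 in each of the other 3 groups. Before scaling by length, CRY2 and CRY1 were nearly level in parental DMSO cells, at 28.1 and 27.4 CPM. The order there rests on annotated exon lengths of 4368 bases for CRY2 and 3267 for CRY1. Which transcripts were expressed was not tested. PER2 per kilobase stood at 0.890 ± 0.0675 of PER1 in KO-labelled and 0.814 ± 0.0417 of PER1 in parental cells in neratinib, and at 2.47 ± 0.162 of PER1 in KO-labelled and 4.61 ± 0.545 of PER1 in parental cells in DMSO.

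In parental cells, neratinib was accompanied by higher PER1, DBP, NR1D1, NR1D2 and CRY2 and by lower BHLHE40, PER2, TEF and PER3, while CRY1 did not pass the test. Higher and lower calls are edgeR quasi-likelihood tests with Benjamini-Hochberg adjustment over all 16208 genes, passed below 0.05. Thus 5 of the 10 genes were higher and 4 lower, where 41.8% of all tested genes were higher and 38.9% lower, 80.7% in all. The count of 9 of 10 is close to that background and is no result about clock genes as a group; the sizes and directions of single genes carry the description. In this comparison 3 of the 10 changed at least 2-fold, against 20.8% of all genes: PER1 and DBP were higher, against 13% of all genes, and BHLHE40 lower, against 7.78%. The 3 neratinib and 3 DMSO libraries did not overlap for 9 of the 10, against 81.3% of all genes, and the median change was 0.34 on the log2 scale, against 0.0389 over all genes. In bulk RNA, a lower level in every cell and fewer cells that express a gene cannot be told apart. Neratinib had 4 h to act, and the libraries do not separate synthesis from decay.

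Among the period genes, PER1 (chromosome 17, 8140472 to 8156506, minus strand) changed most. In parental cells it was at 23.6, 22.7 and 22.9 CPM in neratinib, against 6.36, 5.66 and 5.44 CPM in DMSO. Every neratinib library stood well above every DMSO library, a log2 fold change of 1.99 (SE 0.061, edgeR adjusted p = 2.77e-30), and 580 of the tested genes rose by more. PER2 (chromosome 2, 238244038 to 238290102, minus strand), the other period protein that directly restrains CLOCK and BMAL1, went the other way. It was at 21.6, 22.9 and 21.5 CPM in neratinib, against 29.9, 31.2 and 32.4 CPM in DMSO, with no overlap (log2 fold change -0.51, SE 0.043, edgeR adjusted p = 1.68e-14). PER3 (chromosome 1, 7784320 to 7845177, plus strand), which in mice is dispensable for the rhythm, was at 44.4, 42.6 and 42.8 CPM in neratinib, against 57.8, 60.7 and 61.8 CPM in DMSO. Its libraries were also apart, by -0.47 (SE 0.032, edgeR adjusted p = 1.22e-17).

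The cryptochromes, which with the PER proteins form the repressor complex, were unlike each other. CRY2 (chromosome 11, 45847118 to 45883248, plus strand) was at 45.2, 46.0 and 43.7 CPM in parental neratinib libraries, against 29.3, 28.2 and 26.8 CPM in parental DMSO libraries. The groups did not overlap, and the log2 fold change was 0.68 (SE 0.037, edgeR adjusted p = 6.38e-21). CRY1 (chromosome 12, 106991364 to 107093829, minus strand) was at 26.8, 27.8 and 27.5 CPM in neratinib, against 26.2, 28.7 and 27.3 CPM in DMSO. These libraries interleaved, and the log2 fold change was -0.003 (SE 0.042, edgeR adjusted p = 0.950).

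Both REV-ERB genes were higher with neratinib. NR1D2 (chromosome 3, 23945260 to 23980618, plus strand) was at 117, 114 and 115 CPM in parental neratinib libraries, against 63.1, 65.0 and 65.0 CPM in parental DMSO libraries, a clear separation of 0.84 on the log2 scale (SE 0.031, edgeR adjusted p = 2.67e-27). NR1D1 (chromosome 17, 40092787 to 40100725, minus strand) was measured at low depth, with 251 counts summed over the 3 parental neratinib libraries and 123 over the 3 parental DMSO libraries. It was at 2.03, 2.17 and 2.23 CPM in neratinib, against 1.01, 1.13 and 1.08 CPM in DMSO. All neratinib values exceeded all DMSO values, by 0.996 on the log2 scale, just under 2-fold (SE 0.180, edgeR adjusted p = 3.30e-06). THRA, on the opposite strand, shares 8.08% of the 50-base windows of NR1D1 transcripts, and the kit does not mark strand. THRA was far more abundant, at 73.7 CPM in parental neratinib and 88.6 CPM in parental DMSO cells, and moved in the other direction, by -0.27. Between KO-labelled and parental cells THRA was lower, by -0.52 in neratinib and -0.31 in DMSO, the same sign as NR1D1 there. The part of THRA reads in the NR1D1 counts was not tested.

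The PAR bZIP activators split. DBP (chromosome 19, 48630030 to 48637438, minus strand) was at 14.3, 13.3 and 14.6 CPM in parental neratinib libraries, against 3.67, 3.70 and 3.91 CPM in parental DMSO libraries. That is a log2 fold change of 1.91 (SE 0.077, edgeR adjusted p = 7.66e-26), with the 2 groups far apart. DBP shares 25.9% of its windows with SPHK2 on the other strand, whose own level was 12.8 CPM in parental neratinib and 11.4 CPM in parental DMSO cells. TEF (chromosome 22, 41367333 to 41399326, plus strand) was at 33.8, 33.8 and 34.8 CPM in neratinib, against 48.1, 48.6 and 48.0 CPM in DMSO. Its groups were separate in the opposite direction to DBP, by -0.50 (SE 0.033, edgeR adjusted p = 4.00e-18).

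BHLHE40 (chromosome 3, 4979116 to 4985323, plus strand), the E-box repressor, fell about as far as PER1 rose. It was at 7.0, 6.77 and 6.23 CPM in parental neratinib libraries, against 28.5, 27.0 and 26.7 CPM in parental DMSO libraries. The lowest DMSO library exceeded the highest neratinib library several times over. The log2 fold change was -2.04 (SE 0.060, edgeR adjusted p = 8.05e-31), and 163 tested genes fell by more.

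In KO-labelled cells all 10 genes differed between neratinib and DMSO, 5 higher and 5 lower, where 38.9% of all genes were higher and 38.4% lower (77.2% in all). For all 10 the groups did not overlap, against 78% of all genes. Again the count is not far from the background. At least 2-fold changes were made by 2 of the 10 genes, PER1 and BHLHE40, against 14.7% of all genes, with 9.42% of all genes that much higher and 5.3% that much lower. PER1 was at 21.7, 20.4 and 21.9 CPM in KO-labelled neratinib libraries, against 8.82, 9.50 and 9.38 CPM in KO-labelled DMSO libraries. The groups stood apart by 1.21 on the log2 scale (SE 0.056, edgeR adjusted p = 2.86e-23). DBP was at 9.11, 9.90 and 10.1 CPM in neratinib, against 5.78, 5.84 and 4.87 CPM in DMSO, likewise without overlap, by 0.81 (SE 0.076, edgeR adjusted p = 5.96e-13). BHLHE40 was at 3.34, 2.69 and 2.54 CPM in neratinib, against 10.9, 12.03 and 11.1 CPM in DMSO. Its log2 fold change was -2.0 (SE 0.087, edgeR adjusted p = 1.88e-24), with 89 genes falling by more.

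The remaining members also differed in KO-labelled cells. TEF was at 19.2, 18.5 and 18.7 CPM in neratinib, against 35.3, 36.3 and 35.4 CPM in DMSO, and the groups lay apart by -0.92 (SE 0.039, edgeR adjusted p = 4.77e-25). NR1D2 was at 124, 128 and 124 CPM in neratinib, against 79.7, 79.2 and 69.8 CPM in DMSO, higher by 0.71 (SE 0.030, edgeR adjusted p = 6.34e-25). The third DMSO library was the lowest there and did not reach the neratinib values. NR1D1, at 2.31, 1.68 and 1.26 CPM in neratinib and 0.811, 1.23 and 0.828 CPM in DMSO, was higher by 0.83 (SE 0.194, edgeR adjusted p = 0.000167), with its closest libraries almost touching. CRY2 changed by 0.48, PER3 by -0.47, PER2 by -0.26 and CRY1 by -0.18, all passing the test, and the CRY1 libraries were at 21.3, 21.8 and 20.1 CPM in neratinib, against 23.0, 24.8 and 23.5 CPM in DMSO.

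**Figure D2:**
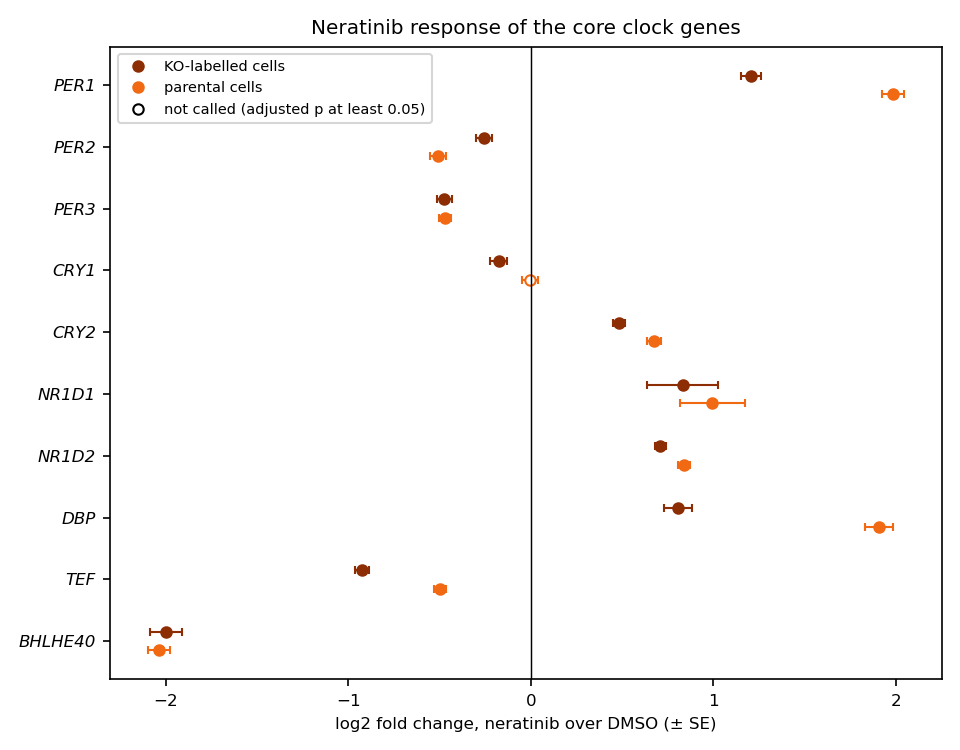
Log2 fold change of neratinib over DMSO for each of the 10 genes, in KO-labelled and in parental cells, with bars for the standard error and open points for changes that did not pass an adjusted p of 0.05. PER1 and DBP lie further right in parental cells (1.99 and 1.91) than in KO-labelled cells (1.21 and 0.81), while BHLHE40 lies at -2.0 in KO-labelled and -2.04 in parental cells.

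Whether the response differed between genotypes was tested as an interaction, that is, the log2 response in KO-labelled cells less the one in parental cells. It passed for 7 of the 10 genes, 1 higher and 6 lower, where 46.1% of all genes passed, 21.5% higher and 24.6% lower. DBP differed most, by -1.10 (SE 0.112, edgeR adjusted p = 4.14e-11), and 389 genes had a more negative interaction. It was also the single member of the 10 whose difference exceeded 1.5-fold by edgeR's glmTreat (adjusted p = 0.000313), a test that 2.17% of all genes passed. PER1 differed by -0.78 (SE 0.087, edgeR adjusted p = 4.15e-10), but not beyond 1.5-fold (glmTreat adjusted p = 0.129); without the first parental DMSO library it did pass, so that 2 of the 10 exceeded that size. TEF fell further in KO-labelled cells, by -0.43 (SE 0.051, edgeR adjusted p = 2.44e-09). PER2 fell less in KO-labelled cells, with an interaction of 0.25 (SE 0.062, edgeR adjusted p = 0.000841).

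Smaller negative interactions were found for CRY2 (-0.19, edgeR adjusted p = 0.00181), CRY1 (-0.17, edgeR adjusted p = 0.0203) and NR1D2 (-0.13, edgeR adjusted p = 0.0123). The calls for CRY1 and NR1D2 were lost with DESeq2 (adjusted p = 0.108 and 0.0861). The CRY1 call was also lost without parental DMSO library 1 or 3, KO-labelled DMSO library 2, parental neratinib library 3 or KO-labelled neratinib library 3, and the NR1D2 call without KO-labelled DMSO library 1 or 2 or parental neratinib library 1 or 3. Over all 12 omissions the values ran between -0.21 and -0.14 for CRY1 and between -0.19 and -0.08 for NR1D2. PER3, BHLHE40 and NR1D1 did not pass. Their differences were -0.002 (SE 0.052) for PER3, 0.04 (SE 0.118) for BHLHE40 and -0.16 (SE 0.271) for NR1D1. NR1D1, with its low counts, was the least precisely measured.

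The KO-labelled and parental cells were first compared in DMSO. PER3 and BHLHE40 were lower in KO-labelled cells by about the same amount, TEF, PER2 and CRY1 were lower by less, PER1, DBP, CRY2 and NR1D2 were higher, and NR1D1 did not pass. That makes 4 higher and 5 lower of 10, where 36% of all genes were higher and 35.6% lower (71.6% in all). The groups did not overlap for 9 of the 10, against 72.8% of all genes, and the 9 calls too are near the background. At least 2-fold lower were 2 of the 10, where 3.46% of all genes were that much lower, and none of the 10 was 2-fold higher, against 8.89% of all genes (12.4% in either direction). The median of the 10 was -0.17, against 0.00219 over all genes. This comparison shares its parental DMSO libraries with the neratinib comparison in parental cells, and its KO-labelled DMSO libraries with that in KO-labelled cells.

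PER3 was at 28.9, 27.8 and 28.2 CPM in KO-labelled DMSO libraries, against 57.8, 60.7 and 61.8 CPM in parental DMSO libraries. The log2 fold change was -1.09 (SE 0.034, edgeR adjusted p = 3.89e-29), with the groups widely apart, and 461 genes fell by more. UTS2 and an antisense transcript, on the opposite strand, share 17.6% of PER3's windows, and UTS2 had 0 counts in all 12 libraries. BHLHE40 was at 10.9, 12.03 and 11.1 CPM in KO-labelled DMSO libraries, against 28.5, 27.0 and 26.7 CPM in parental DMSO libraries. It differed by -1.27 (SE 0.054, edgeR adjusted p = 2.83e-24), again without overlap, and 312 genes fell by more. TEF was at 35.3, 36.3 and 35.4 CPM in KO-labelled cells, against 48.1, 48.6 and 48.0 CPM in parental cells, a separation of -0.43 (SE 0.032, edgeR adjusted p = 6.48e-16).

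On the higher side, PER1 was at 8.82, 9.50 and 9.38 CPM in KO-labelled DMSO libraries, against 6.36, 5.66 and 5.44 CPM in parental DMSO libraries. The log2 fold change was 0.66 (SE 0.073, edgeR adjusted p = 6.65e-11), with no overlap. DBP was at 5.78, 5.84 and 4.87 CPM in KO-labelled cells, against 3.67, 3.70 and 3.91 CPM in parental cells, with every KO-labelled library above every parental one, higher by 0.56 (SE 0.093, edgeR adjusted p = 9.52e-07). CRY2 was higher by 0.36 (SE 0.038, edgeR adjusted p = 2.65e-11) and NR1D2 by 0.25 (SE 0.032, edgeR adjusted p = 4.97e-09). PER2, at -0.23 (SE 0.041, edgeR adjusted p = 4.78e-06), and CRY1, at -0.20 (SE 0.043, edgeR adjusted p = 7.08e-05), were lower by small amounts. NR1D1 was at 0.811, 1.23 and 0.828 CPM in KO-labelled cells, against 1.01, 1.13 and 1.08 CPM in parental cells, and the groups overlapped (log2 fold change -0.14, SE 0.215, edgeR adjusted p = 0.576).

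In neratinib the KO-labelled cells showed 2 of the 10 genes higher and 6 lower than parental cells, where 34.7% of all genes were higher and 36.9% lower (71.6% in all). The groups did not overlap for 8 of the 10, against 72.6% of all genes. At least 2-fold lower were again 2, PER3 and BHLHE40, against 3.25% of all genes, and none was 2-fold higher, against 7.92% (11.2% in either direction). The median of the 10 was -0.34, against -0.0187 over all genes. PER3 was at 20.1, 20.0 and 21.0 CPM in KO-labelled neratinib libraries, against 44.4, 42.6 and 42.8 CPM in parental neratinib libraries. The difference of -1.09 (SE 0.039, edgeR adjusted p = 2.90e-27) left the groups far apart. BHLHE40 was at 3.34, 2.69 and 2.54 CPM in KO-labelled cells, against 7.0, 6.77 and 6.23 CPM in parental cells, and differed by -1.23 (SE 0.097, edgeR adjusted p = 3.89e-15). TEF was at 19.2, 18.5 and 18.7 CPM in KO-labelled cells, against 33.8, 33.8 and 34.8 CPM in parental cells, by -0.86 (SE 0.039, edgeR adjusted p = 1.84e-23).

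DBP lay on opposite sides in the 2 treatments. In neratinib it was at 9.11, 9.90 and 10.1 CPM in KO-labelled libraries, against 14.3, 13.3 and 14.6 CPM in parental libraries, lower by -0.54 (SE 0.063, edgeR adjusted p = 3.54e-10), whereas in DMSO every KO-labelled library was above every parental one. PER1, higher in KO-labelled cells in DMSO, was in neratinib at 21.7, 20.4 and 21.9 CPM in KO-labelled libraries, against 23.6, 22.7 and 22.9 CPM in parental libraries. That difference was small, -0.12 (SE 0.047, edgeR adjusted p = 0.0268), and its call was lost without the second KO-labelled neratinib library (edgeR adjusted p = 0.164) and without the first or the third parental neratinib library (edgeR adjusted p = 0.145 and 0.0528). CRY1 was lower by -0.37 (SE 0.045, edgeR adjusted p = 5.71e-10), CRY2 higher by 0.17 (SE 0.033, edgeR adjusted p = 1.97e-05) and NR1D2 higher by 0.12 (SE 0.028, edgeR adjusted p = 0.000257). PER2 (0.02, edgeR adjusted p = 0.685) and NR1D1 (-0.30, edgeR adjusted p = 0.0948) did not pass, and NR1D1 did pass, at -0.53 (edgeR adjusted p = 0.00752), without the first KO-labelled neratinib library, the highest of its group.

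**Figure D3:**
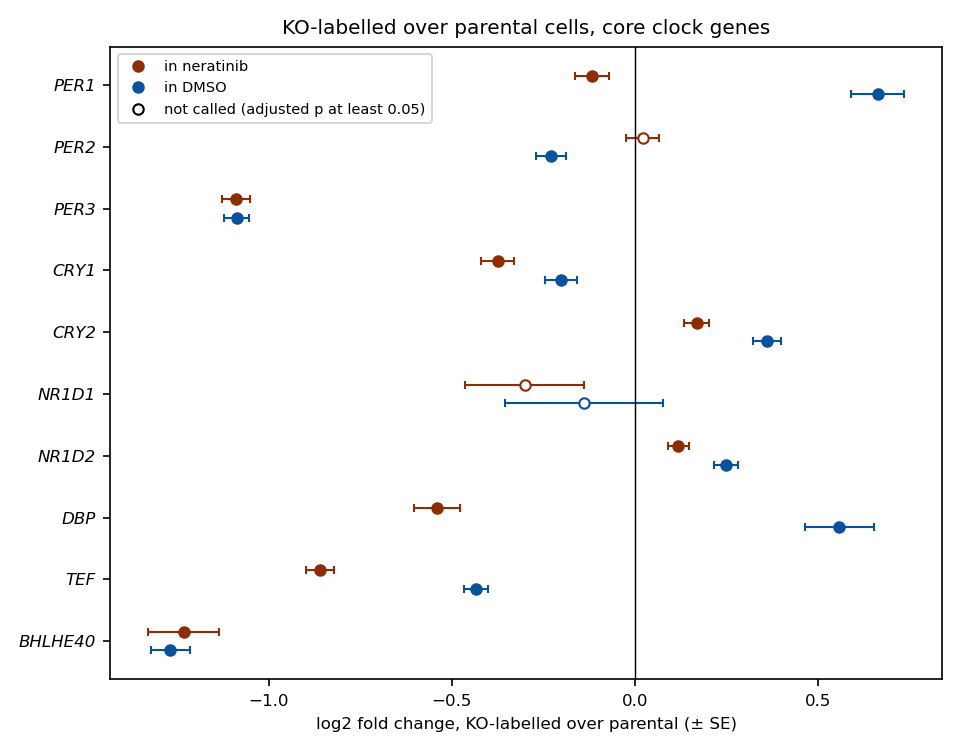
Log2 fold change of KO-labelled over parental cells for each of the 10 genes, in neratinib and in DMSO, with bars for the standard error and open points for differences that did not pass an adjusted p of 0.05. PER3 (-1.09 in both) and BHLHE40 (-1.23 in neratinib and -1.27 in DMSO) lie far to the left in both treatments, while DBP lies at -0.54 in neratinib and 0.56 in DMSO.

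A further 28 clock genes were listed by role: activators, ROR receptors, other repressors and PAR bZIP relatives, regulators of PER and CRY stability, and outputs. All 28 were in the table and 24 were tested. In parental cells 13 of the 24 were higher and 9 lower with neratinib, and in KO-labelled cells 12 were higher and 9 lower. For KO-labelled against parental cells, 14 were higher and 6 lower in neratinib, and 14 were higher and 5 lower in DMSO. The interaction passed for 6 of the 24 on the higher side and 7 on the lower. The background shares given above apply to these counts too, and the medians over the 24 were 0.23, 0.06, 0.12 and 0.19 on the log2 scale in the same order.

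The activators of the clock loop moved unevenly with neratinib. CLOCK was at 20.5, 22.9 and 22.6 CPM in parental neratinib libraries, against 49.7, 49.1 and 48.5 CPM in parental DMSO libraries. Those libraries were apart by -1.17 (SE 0.039, edgeR adjusted p = 9.53e-29), and in KO-labelled cells CLOCK changed by -1.14 (SE 0.042, edgeR adjusted p = 5.48e-27). BMAL1, listed under its older symbol ARNTL, was at 8.16, 7.94 and 8.96 CPM in parental neratinib libraries, against 3.72, 3.76 and 4.28 CPM in parental DMSO libraries. It was higher by 1.09 (SE 0.084, edgeR adjusted p = 9.88e-16) in parental cells and by 0.50 (SE 0.076, edgeR adjusted p = 1.00e-07) in KO-labelled cells, and that difference passed as an interaction (-0.59, edgeR adjusted p = 3.78e-05). NPAS2, which can stand in for CLOCK, was at 2.07, 2.02 and 1.84 CPM in parental neratinib libraries, against 3.55, 3.27 and 4.09 CPM in parental DMSO libraries. In parental cells it was lower by -0.87 (SE 0.118, edgeR adjusted p = 7.47e-09). In KO-labelled cells it changed by 0.02 (SE 0.094, edgeR adjusted p = 0.825), and the interaction was 0.90 (edgeR adjusted p = 3.27e-06). The CLOCK interaction, 0.02, did not pass (edgeR adjusted p = 0.776). CLOCK was lower in KO-labelled than in parental cells, by -0.27 in neratinib and -0.29 in DMSO (edgeR adjusted p = 2.36e-06 and 6.75e-10). In that comparison BMAL1 did not pass in neratinib (0.09) and was higher by 0.67 in DMSO (edgeR adjusted p = 0.286 and 8.68e-09). NPAS2 was higher there by 1.21 in neratinib and 0.31 in DMSO (edgeR adjusted p = 6.27e-13 and 0.00470).

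Among the listed genes that changed at least 2-fold, BHLHE41 (DEC2), the paralogue of BHLHE40, was lower in all 4 comparisons. It was at 0.473, 0.354 and 0.642 CPM in KO-labelled and 2.01, 1.99 and 1.51 CPM in parental neratinib libraries, and at 1.34, 1.02 and 1.47 CPM in KO-labelled and 4.98, 4.59 and 4.04 CPM in parental DMSO libraries. The KO-labelled cells were below the parental ones by -1.92 in neratinib (edgeR adjusted p = 1.59e-10) and by -1.85 in DMSO (edgeR adjusted p = 1.80e-15). Neratinib cells were below DMSO cells by -1.38 in KO-labelled (edgeR adjusted p = 1.59e-06) and by -1.30 in parental cells (edgeR adjusted p = 3.09e-12). Both DEC genes were thus lower with neratinib and lower under the KO label. BHLHE41 had low counts in KO-labelled cells, 54 in neratinib and 146 in DMSO, against 216 and 522 in parental cells (summed over 3 libraries). NFIL3, a D-box repressor that opposes DBP and TEF, was higher by 1.05 in KO-labelled than in parental DMSO cells (edgeR adjusted p = 2.21e-24). In neratinib NFIL3 was higher in KO-labelled cells by 0.89 (edgeR adjusted p = 3.55e-21).

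With neratinib the receptor RORA was higher by 1.25 in KO-labelled and 0.90 in parental cells. HLF, the remaining PAR bZIP gene, was higher by 1.08 in KO-labelled and 1.03 in parental cells, which makes DBP and HLF higher and TEF lower within that family in both genotypes. Among outputs, WEE1 was higher by 1.53 in KO-labelled and 1.16 in parental cells. NAMPT was higher by 1.13 in KO-labelled and 0.77 in parental cells, while USP2 changed by -1.04 in KO-labelled and -1.14 in parental cells. USP2 had low counts, 50 in neratinib and 107 in DMSO in KO-labelled cells, and 91 and 197 in parental cells (summed over 3 libraries). With single libraries left out, its change in KO-labelled cells ran between -1.16 and -0.83. In neratinib KLF10 was higher by 1.29, and NPAS2 by 1.21, in KO-labelled than in parental cells. In DMSO KLF10 was higher by 0.46 in KO-labelled cells. All of these passed edgeR's test, with the largest adjusted p, 0.000304, for USP2 in KO-labelled cells. CSNK1E, a kinase that marks PER proteins, had 55 counts in KO-labelled and 64 in parental cells in neratinib, and 55 in KO-labelled and 47 in parental cells in DMSO (summed over 3 libraries); a read-through locus in the table covers the same exons, so its level is uncertain.

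**Figure D4:**
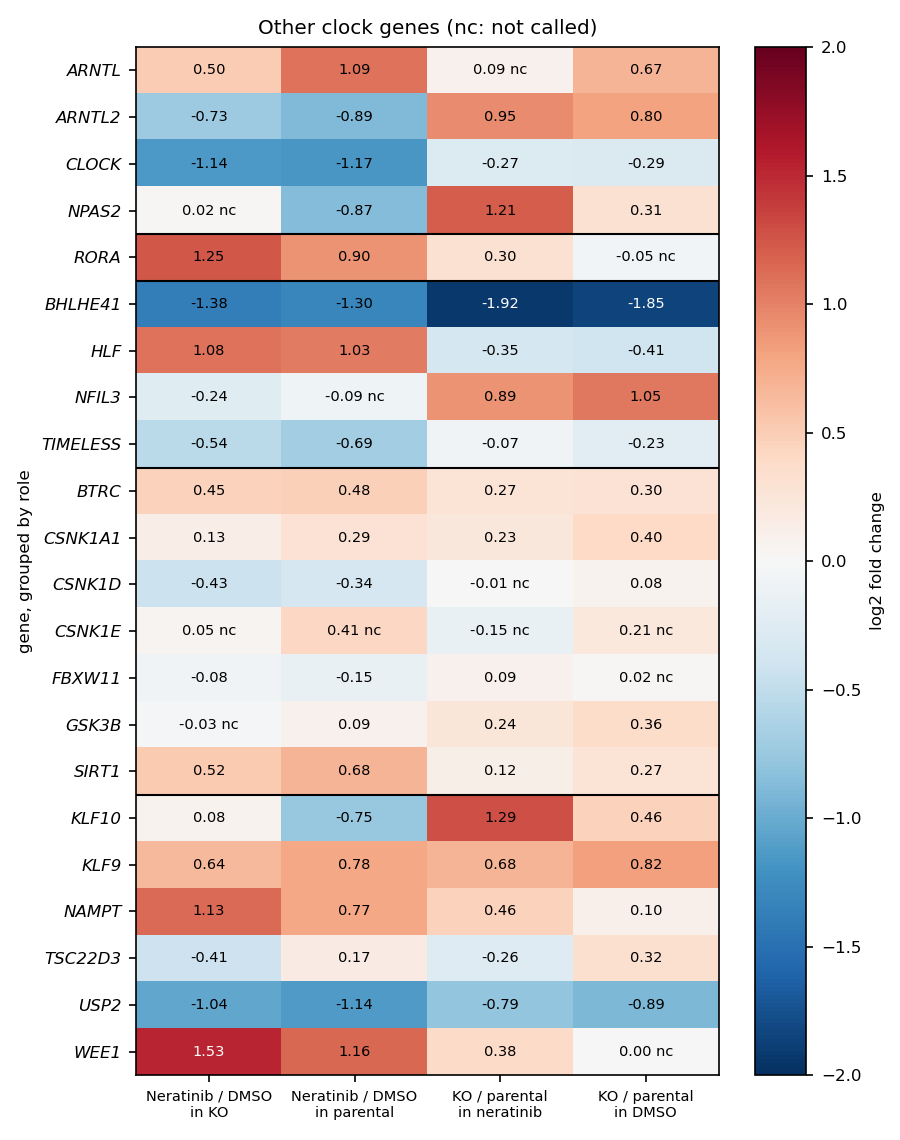
Log2 fold changes of other clock genes tested, grouped by role, in the 4 pairwise comparisons, with the colour and the printed value giving the fold change. CLOCK is lower and ARNTL (BMAL1) higher with neratinib in both genotypes, and BHLHE41 is lower in all 4 comparisons.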

How the data were processed

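RNA of 12 BT474 libraries was measured. Per the labels' protocols, the library kit was Illumina TruSeq RNA v2, which keeps no strand information, and libraries were sequenced as single 50-base reads. The authors deposited raw counts, whole numbers per gene. The submitters' processing notes name FastQC 0.11.7, STAR 2.7.9, edgeR 3.40.2 and the GRCh38 (hg38) genome. Which program counted the reads, with which annotation and strand option, is not given in the sources used here. Overlapping genes on opposite strands therefore cannot be told apart.

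Of 28395 lines, 581 carried no symbol (0.0877% to 0.124% of a library's counts) and were left out, leaving 27814 genes. Counts were filtered with filterByExpr, scaled by TMM (trimmed mean of M values), and fitted with edgeR 4.0.16 in R 4.3.3 over all 12 libraries, giving each of the 4 groups its own mean. Quasi-likelihood tests were adjusted by Benjamini-Hochberg over 16208 genes and called below 0.05; the interaction was also tested beyond 1.5-fold with glmTreat. Alternatives were other scalings, other filters, DESeq2 1.42.0, a replicate block and leaving out each library. The model was checked on simulated counts. Within-group Spearman correlations were 0.987 to 0.989, and 0 pairs of libraries were identical. Separate cultures are not stated in the labels, and the p-values thus reflect the spread among these 12 libraries alone, which may be technical. Same-numbered libraries did not deviate together (18 pairs, r of -0.021 to 0.0413), and so were not paired.

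The members and gene lists were chosen with earlier results of these data known. All 10 members were named throughout. Of 28 other clock genes, CLOCK, BMAL1 and NPAS2 were always named, and others if they changed at least 2-fold in a pairwise comparison. Some of these genes are counted in the totals but are not reported here by name. Gene positions and exon lengths are from GENCODE 29 (GRCh38), and promoter sequences are from RefSeq (GRCh38.p14).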

Additional observations from a re-analysis of the deposited data

Results flagged for a closer look

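The neratinib response differed between KO-labelled and parental cells for 7 of the 10 clock genes and for 2 of the 4 listed activators, each by edgeR's test of the interaction. On the log2 scale the response was 0.81 in KO-labelled and 1.91 in parental cells for DBP, a difference of -1.10 (edgeR adjusted p = 4.14e-11). For PER1 it was 1.21 in KO-labelled and 1.99 in parental cells, a difference of -0.78 (edgeR adjusted p = 4.15e-10). TEF changed by -0.92 in KO-labelled and -0.50 in parental cells, a difference of -0.43 (edgeR adjusted p = 2.44e-09).

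PER2 changed by -0.26 in KO-labelled and -0.51 in parental cells, so that the difference was 0.25 (edgeR adjusted p = 0.000841). The differences for CRY2 (-0.19, edgeR adjusted p = 0.00181), CRY1 (-0.17, edgeR adjusted p = 0.0203) and NR1D2 (-0.13, edgeR adjusted p = 0.0123) were smaller. The calls for CRY1 and NR1D2 were lost with DESeq2 (adjusted p = 0.108 and 0.0861). They were also lost on leaving out any 1 of 5 libraries for CRY1 and any 1 of 4 for NR1D2. ARNTL differed by -0.59 (edgeR adjusted p = 3.78e-05) and NPAS2 by 0.90 (edgeR adjusted p = 3.27e-06). These 9 differences, among the 10 clock genes and the 4 listed activators, stand against 46.1% of all tested genes with an interaction that passed.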

How the results depend on the processing

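With the replicate number as a replicate block, no call among the 10 genes changed, and 7349 genes had an interaction against 7469 without it. The counts of the 10 genes higher and lower, and of all genes called, stayed within 1.5 times of the reported ones under the other scalings, filters, DESeq2 and single libraries left out. That limit is wide for counts this small. With DESeq2 the CRY1 and NR1D2 interactions (adjusted p = 0.108 and 0.0861) dropped out of the 6 lower ones. The count of members with an interaction beyond 1.5-fold was the exception, at 1 to 2 with single libraries left out, because PER1 passed without the first parental DMSO library. Values that changed sign were not called in either form; the NR1D1 interaction among them, reported at -0.16, was imprecise. In parental cells with neratinib, CRY1 was at 0.0762 with library totals alone (edgeR adjusted p = 0.10) and 0.0572 with a mean of at least 5 CPM required (edgeR adjusted p = 0.206). NPAS2 in KO-labelled cells with neratinib was at -0.0152 with no filter on low counts. The PER3 interaction was 0.0209 with DESeq2-style size factors, 0.00301 with at least 5 CPM required and 0.0217 with DESeq2, and the CLOCK interaction was -0.000619 with library totals alone. With single libraries left out, CRY1 in parental neratinib cells ranged between -0.0386 and 0.0290, PER2 in KO-labelled against parental neratinib cells between -0.00937 and 0.0531, and NPAS2 with neratinib in KO-labelled cells between -0.0112 and 0.0402. The interactions ranged between -0.0220 and 0.0394 for PER3, -0.0784 and 0.107 for BHLHE40, -0.388 and 0.0842 for NR1D1 and -0.0125 and 0.0664 for CLOCK. The interaction of CRY1 lost its call on leaving out any 1 of 5 libraries and that of NR1D2 any 1 of 4; NR1D2 was at -0.08 without the first KO-labelled DMSO library. The small PER1 difference between KO-labelled and parental neratinib cells was not called with at least 5 CPM required (-0.09, edgeR adjusted p = 0.0868), with DESeq2 (-0.11, adjusted p = 0.115) or without any 1 of 3 libraries. CRY1 with neratinib in KO-labelled cells was at -0.11 with at least 5 CPM required. The causes were not tested. NR1D1 was left out by the stricter filter, and its summed counts of 194 in KO-labelled and 251 in parental cells in neratinib, and 113 in KO-labelled and 123 in parental cells in DMSO, limit its precision.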

Other observations

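The nearest tested protein-coding genes were measured beside all 10 members in every comparison. Values are given for some members, in some of the comparisons where few or none of the neighbours were as low. Members and comparisons were both chosen after the values were seen. PER3, at -1.09 in KO-labelled against parental cells in both treatments, had 20 such neighbours with a median of -0.004 in neratinib and 0.008 in DMSO. Of these, 1 was lower than PER3 in neratinib and 0 in DMSO. BHLHE40 had 16 neighbours with medians of -0.02 in neratinib and 0.02 in DMSO, of which 0 were as low as BHLHE40 in either. Of the 20 neighbours of TEF, 0 were lower than TEF in neratinib, with a median of -0.10, and 2 were lower in DMSO, with a median of -0.11. For DBP, 0 of 20 neighbours had an interaction as negative, and their median was -0.10. For KO-labelled against parental cells, 0 of 20 neighbours were lower than CRY1 in neratinib, and 0 of 20 lower than PER2 in DMSO. The PER2 neighbours were themselves mostly higher in KO-labelled cells, with medians of 0.33 in neratinib and 0.31 in DMSO. Of these 20, 2 in neratinib and 1 in DMSO were below 0. With neratinib in KO-labelled cells, 0 of 20 neighbours fell further than TEF.

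BHLHE40-AS1, on the strand opposite BHLHE40 with an exon overlap of 4 bases, was higher in KO-labelled than in parental cells while BHLHE40 was lower. Its mean level was 1.10 CPM in KO-labelled and 0.377 CPM in parental cells in neratinib (log2 fold change 1.54, edgeR adjusted p = 3.07e-06), and 0.984 CPM in KO-labelled and 0.523 CPM in parental cells in DMSO (log2 fold change 0.90, edgeR adjusted p = 0.00221). These levels rest on 123 counts in KO-labelled and 44 in parental cells in neratinib, and on 113 in KO-labelled and 60 in parental cells in DMSO. Between neratinib and DMSO, where BHLHE40 was lower in both genotypes, BHLHE40-AS1 did not pass in either. There it changed by 0.17 in KO-labelled (edgeR adjusted p = 0.482) and by -0.48 in parental cells (edgeR adjusted p = 0.170). TEF per kilobase was 1.20 ± 0.0865 of DBP in KO-labelled and 1.5 ± 0.0619 of DBP in parental cells in neratinib, and 4.03 ± 0.392 of DBP in KO-labelled and 7.91 ± 0.289 of DBP in parental cells in DMSO (SD, n = 3 each).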
